A study of Drosophila melanogaster with 3 samples.

Results

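The genes described here encode proteins that license and start DNA replication: the subunits of the minichromosome maintenance (MCM) helicase Mcm2, Mcm3, dpa (the fly Mcm4), Mcm5, Mcm6 and Mcm7, the sliding clamp PCNA, and the origin recognition subunits Orc1, Orc2 and Orc5. They were found by the gene symbol or a synonym in the annotation of the array. Of the 10 listed genes, 9 had a value on all 3 arrays, out of 8177 named genes that did. No spot was annotated to Mcm7, and its absence from the values below is one of annotation, since 1442 probes carry no gene name and it may be among them. The 9 genes were carried by 19 spots, of which 18 gave a ratio on every array.

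The study compared laser-wounded with unwounded Drosophila melanogaster embryos, 30 min after wounding, to learn which transcripts change while a single large cell repairs its cortex. Both groups were syncytial embryos collected over the first hour of development, dechorionated by hand, kept under halocarbon oil and frozen after the same time. The wounded embryos had each been ablated several times with a laser, and the unwounded embryos had been handled alike without ablation. Both carried the actin reporter sGMCA, so that no embryo here was free of a transgene. Each of the 3 two-colour arrays, from experiments 3, 4 and 5, held wounded RNA in Cy3 and unwounded RNA in Cy5, and gave 1 log2 ratio per spot. The study's methods describe more replicates than these 3 arrays, and any others were not analysed here. How many embryos were pooled for an RNA sample is not given in the sources used here. All values are log2 ratios of wounded over unwounded embryos, and means are given ± SD (n = 3 arrays). The table does not state this direction. It is likely, because 12 of 12 tested genes listed in the publication as higher after wounding were above 0 and 13 of 13 listed as lower were below 0, but it rests on lists drawn from these data, and with the opposite reading every direction below turns around. Equal masses of RNA were labelled, so a ratio compares a transcript's share of the RNA, and less of that transcript per embryo cannot be told apart from more of all other RNA.

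Before a stretch of DNA can be copied, the origin recognition complex binds it and, with Cdc6 and the Cdt1 protein that flies call Double parked, loads the ring-shaped MCM complex onto the double helix. In S phase, kinases and further factors, among them Cdc45 and the GINS complex, turn the loaded ring into the active helicase, and PCNA then encircles the new duplex and holds the polymerases to it. The nuclei of a syncytial fly embryo alternate between very short S phases and mitoses without gap phases, and they do so largely with RNA and protein that the mother laid down in the egg.

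In wounded embryos most transcripts of this machinery had somewhat lower ratios, and none passed the full criterion for a change. Of the 9 measured genes, 8 had a mean below 0, and 7 were below 0 on all 3 arrays. Mcm3 was among these 7 only through 1 of its 2 spots, described below. Their median was -0.25, against 0.00 over the 10183 genes and probes tested, and it was -0.23, -0.23 and -0.18 in experiments 3, 4 and 5. A change was called at an adjusted p under 0.05 in limma together with at least 1.5-fold, and 0 of the 9 genes were called in either direction, while 1.68% of all features were called lower and 0.648% higher. At an unadjusted p under 0.05, 6 of the 9 genes were lower and 0 higher, where 14.9% of all features were lower and 10.1% higher. Of all features, 49.7% had a mean below 0, 25.0% were below 0 on all 3 arrays and 25.3% above 0 on all 3, which 0 of the 9 genes were. The nearest to a call was Orc2, which passed the adjusted p but not the 1.5-fold minimum. It made 1 lower and 0 higher genes of the 9 at an adjusted p under 0.05 and any fold, where 3.16% of all features were lower and 0.864% higher. The range over the 9 genes ran from Mcm3 at -0.52 ± 0.44 to Orc1 at 0.08 ± 0.19.

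**Figure D1:**
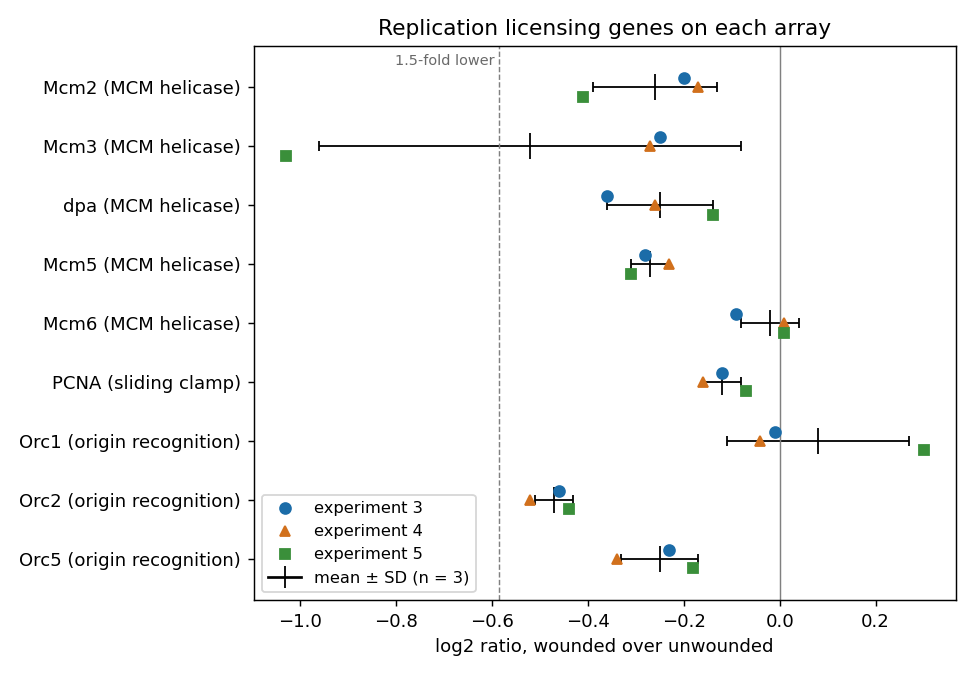
Log2 ratio of wounded over unwounded embryos (horizontal axis) for the 9 measured licensing genes (rows), with a symbol for each of experiments 3, 4 and 5 and the mean ± SD (n = 3) in black; the dashed line marks 1.5-fold lower. Orc2 has 3 low values close together, between -0.52 and -0.44, and the value of Mcm3 in experiment 5, at -1.03, stands alone.

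The origin recognition complex, which marks the sites where replication can start, was represented by 3 of the listed genes, and they did not have alike ratios. Orc2, a core subunit of the complex, had -0.46, -0.52 and -0.44 in experiments 3, 4 and 5, or -0.47 ± 0.04. All 3 arrays were low and close to each other, and the level in wounded embryos was 1.39-fold lower (95% interval of the moderated mean, 1.24- to 1.55-fold lower; limma, adjusted p = 0.0386). Of all features, 4.47% had an equal or lower mean. The mean was -0.49 to -0.45 when 1 array was left out, with an adjusted p of 0.172, 0.0946 and 0.180 without experiments 3, 4 and 5. Orc5, which belongs to the ATPase subunits of the complex, had -0.23, -0.34 and -0.18, a mean of -0.25 ± 0.08 with a limma adjusted p of 0.118. It too was below 0 on each array, with smaller values than Orc2. Orc1, the largest ATPase subunit and in flies one whose protein level changes through the cell cycle, had -0.01, -0.04 and 0.30, which gave 0.08 ± 0.19 (limma, adjusted p = 0.604). Experiments 3 and 4 were near 0 and experiment 5 above it, so the sign of this mean rests on experiment 5.

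The 3 origin recognition genes kept the same order on every array. Orc2 minus Orc1 was -0.45, -0.48 and -0.74, a mean difference of -0.55 ± 0.16, between means of -0.47 and 0.08. Orc2 minus Orc5 was -0.22 ± 0.04 and Orc5 minus Orc1 was -0.33 ± 0.14. In all 3 of these pairs the difference had 1 sign on every array, but with 3 arrays an exact two-sided permutation test of signs cannot go below p = 0.25. The 2 spots of Orc1 also differed with 1 sign on every array, by 0.20 to 0.27. A steady difference as large as that of Orc2 and Orc5 thus also occurred within 1 gene. The remaining subunits, from the list of other replication genes, were Orc3 with -0.22, -0.17 and -0.18 (-0.19 ± 0.02; limma, adjusted p = 0.153) and Orc4 with -0.35, -0.52 and -0.15 (-0.34 ± 0.19; limma, adjusted p = 0.119). Neither was called. No spot was annotated to Orc6, with the same doubt as for Mcm7. Orc1 was thus the 1 origin recognition subunit of the 5 measured without a negative ratio on each array.

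The MCM subunits assemble into a single ring, and 4 of the 5 measured genes were below 0 on all 3 arrays, against 25.0% of all features. Mcm3 was among these 4 only through 1 of its 2 spots. Mcm5 had -0.28, -0.23 and -0.31, which gave -0.27 ± 0.04, or 1.21-fold lower in wounded embryos (95% interval 1.08- to 1.35-fold lower; limma, adjusted p = 0.0880). Its 3 arrays lay within a narrow band, and it had the smallest p of the MCM genes. Mcm2 had -0.20, -0.17 and -0.41, or -0.26 ± 0.13 (limma, adjusted p = 0.135), and dpa had -0.36, -0.26 and -0.14, or -0.25 ± 0.11 (limma, adjusted p = 0.132). The array with the lowest ratio was experiment 5 for Mcm2 and experiment 3 for dpa. These 3 genes had means within 0.02 of each other, and the differences between them changed sign between arrays, so they could not be ordered.

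Mcm6 stood apart from them, with -0.09, 0.01 and 0.01, or -0.02 ± 0.06 (limma, adjusted p = 0.837). Its values were near 0 on all 3 arrays, and its 95% interval ran from 1.14-fold lower to 1.10-fold higher. Mcm5 minus Mcm6 was -0.19, -0.24 and -0.32, a mean of -0.25 ± 0.07. Mcm2 minus Mcm6 and dpa minus Mcm6 were -0.24 ± 0.17 and -0.23 ± 0.07. Each of these differences had 1 sign on all arrays, in a design whose smallest exact two-sided permutation p is 0.25. Of the 10 pairs of MCM genes, 5 kept 1 sign on all arrays. These 5 comprised every pair with Mcm6, and the pair of Mcm3 and Mcm2. For the pairs of Mcm3 with Mcm6 and with Mcm2, the sign in experiment 5 rests on 1 of the 2 spots of Mcm3. The other spot had 0.01 there, where Mcm6 had 0.01 and Mcm2 had -0.41.

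Mcm3 had the lowest mean of the listed genes and the widest spread, with -0.25, -0.27 and -1.03 in experiments 3, 4 and 5. Experiments 3 and 4 lay among the values of the other MCM genes, and experiment 5 was far below them. The mean was -0.52 ± 0.44, with a 95% interval of 1.04- to 1.97-fold lower (limma, adjusted p = 0.167). Without experiment 5 the mean was -0.26. The low value came from 1 of its 2 spots: clone Duke_8 had -0.23, -0.25 and -2.07, while clone LD07144 had -0.27, -0.30 and 0.01. The 2 clones differed by 0.04 and 0.05 in experiments 3 and 4, and by 2.08 in experiment 5. Only 0.918% of the 11765 probes tested singly had an SD as large as that of Duke_8. Without this clone, a choice made after seeing the values, Mcm3 had a mean of -0.18 (limma, adjusted p = 0.271). Then 5 instead of 6 of the 9 genes were lower at an unadjusted p under 0.05. Mcm3 was then no longer below 0 on all 3 arrays, while 6 of the other 8 genes were.

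PCNA, the clamp that travels with the fork, had -0.12, -0.16 and -0.07, or -0.12 ± 0.04 (limma, adjusted p = 0.311). All 3 arrays were slightly below 0, and the 95% interval ran from 1.21-fold lower to 1.03-fold higher. Ordered by their means, the 9 genes were Mcm3, Orc2, Mcm5, Mcm2, dpa, Orc5, PCNA, Mcm6 and Orc1, from the lowest to the highest. Of the 8 steps in this order 6 joined genes whose array values overlapped. The 2 without overlap were the step from Orc2 to Mcm5, 0.20 ± 0.08, and the step from Orc5 to PCNA, 0.13 ± 0.04. The 95% interval lay below 0 for 6 genes and included 0 for PCNA, Mcm6 and Orc1. For 7 of the 9 genes it stayed within 1.5-fold in either direction, and for Orc2 and Mcm3 it reached beyond 1.5-fold lower.

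**Figure D2:**
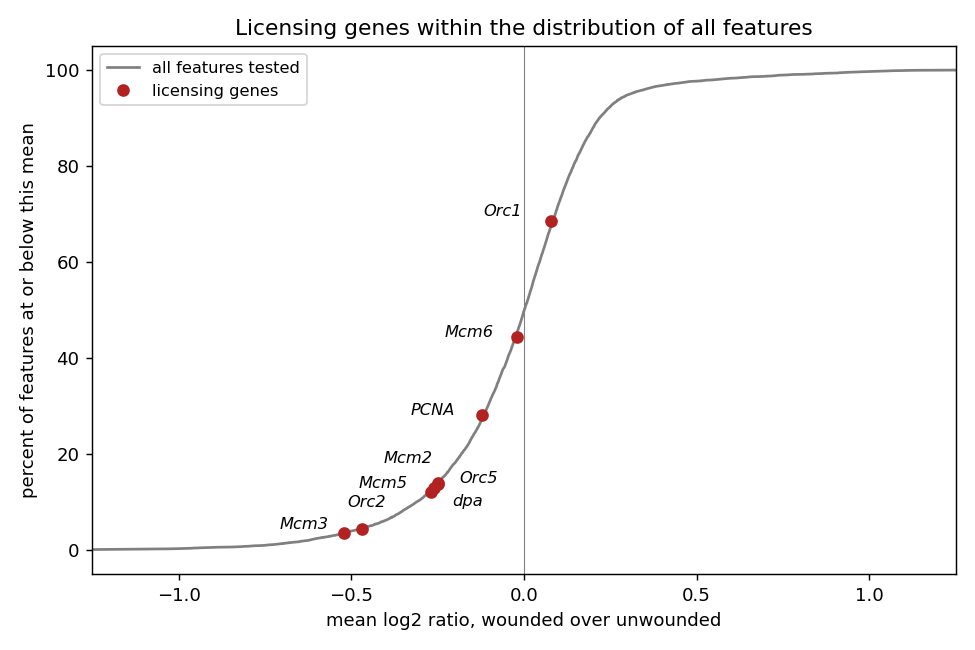
Mean log2 ratio of wounded over unwounded embryos (horizontal axis) against the percent of the 10183 tested features with an equal or lower mean (vertical axis), as a grey line for all features and a red point for each licensing gene. Mcm3 and Orc2 lie at 3.70% and 4.47%, Mcm5, Mcm2, dpa and Orc5 between 12.2% and 14.1%, and Mcm6 and Orc1 at 44.4% and 68.5%.

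Each measured gene was carried by at least 2 spots, which allowed the ratios to be checked between spots on the same array. Of the 18 spots with a ratio on all arrays, 17 had a mean below 0 and 14 were below 0 on every array, against 50.1% and 25.1% of the 11765 probes tested singly. Spots of a gene read the same transcript in the same RNA, so these counts repeat those of the genes and are not separate observations. For Orc2, clone Duke_2 had -0.49, -0.43 and -0.32, and clone GH13824 had -0.43, -0.61 and -0.55. Both clones were low on all 3 arrays, with means of -0.41 ± 0.09 and -0.53 ± 0.09, and a limma adjusted p over all single probes of 0.0580 and 0.0425. For Mcm5, clones Duke_10 and RE67590 had means of -0.28 ± 0.14 and -0.27 ± 0.06, a gap of 0.01. PCNA, dpa and Orc5 also had gaps of 0.04 to 0.06 between the means of their spots; 2 of the 3 dpa spots are the same clone, RE04051, once amplified anew, and are thus not separate sequences.

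Orc1 and Mcm2 had wider gaps between spots. For Orc1, clone Duke_1 had 0.09, 0.06 and 0.44, and clone LD11626 had -0.12, -0.14 and 0.17. Both clones were highest in experiment 5, and they differed by 0.20 to 0.27 on each array, so that the gene's mean ratio was positive from one clone, 0.20 ± 0.21, and near 0 from the other, -0.03 ± 0.17. For Mcm2, clone Duke_7 had -0.18, -0.22 and -0.72, and clone LD47441 had -0.22, -0.13 and -0.11. The value of -0.41 for Mcm2 in experiment 5 thus came from Duke_7, as that of Mcm3 did from Duke_8, and the Mcm5 clone Duke_10 was also lowest there, at -0.41 against -0.22 for RE67590. The Mcm6 spot Duke_11 was slightly lower in experiment 5 than in experiment 3, and the dpa spot Duke_9 had -0.22 in both experiments 4 and 5. Duke spots of genes outside the MCM helicase were not lowest in experiment 5, among them Duke_1, Duke_2 and Duke_22. For Mcm6, only clone SD04977 had a ratio on all arrays and entered the test; the other spot, Duke_11, was empty in experiment 4 and had -0.06 and -0.08 in experiments 3 and 5. The median gap between the spots of a gene was 0.09 over the 8 listed genes with at least 2 complete spots, and 0.11 over all 1301 such genes on the array. The third quartile over these 1301 genes was 0.23.

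**Figure D3:**
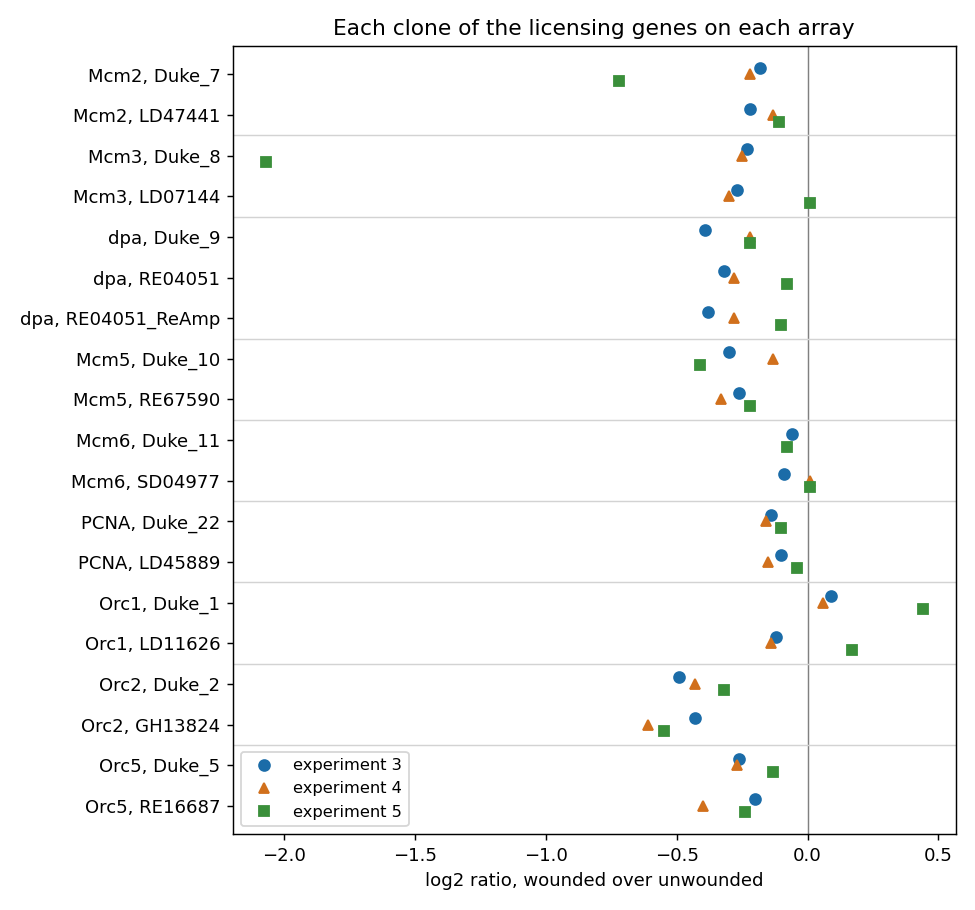
Log2 ratio of wounded over unwounded embryos (horizontal axis) for each of the 19 spots of the licensing genes (rows, gene and clone), with a symbol for each of experiments 3, 4 and 5. The 2 Orc2 clones lie below 0 throughout, the Mcm3 clone Duke_8 is at -2.07 in experiment 5 and near -0.25 in the other experiments, and the Orc1 clones lie on either side of 0 in experiments 3 and 4.

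Other genes of the replication machinery, listed by role without regard to how they moved but with earlier results of these data known, had lower ratios too, and 2 of them were called. Of 63 listed genes 51 were tested, and 39 of these, or 76.5%, had a mean below 0, against 49.7% of all features. Their median was -0.23, with -0.22, -0.24 and -0.17 in experiments 3, 4 and 5. At an unadjusted p under 0.05, 26 were lower and 2 higher, where 14.9% of all features were lower and 10.1% higher. Cdc45 and RfC3 fell and 0 rose, where 1.68% of all features were called lower and 0.648% higher. Without a minimum fold, 6 of the 51 were lower at an adjusted p under 0.05 and 0 were higher, against 3.16% and 0.864% of all features. The other 4 were RfC4, cutlet, PolA2 and Prim2, of which RfC4 and cutlet are named because of their values.

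Cdc45, a partner of the MCM ring in the active helicase, had -0.56, -0.67 and -0.57, with a mean of -0.60 ± 0.06. All 3 arrays were low and the level in wounded embryos was 1.51-fold lower, just past the minimum (limma, adjusted p = 0.0365). The other helicase partners did not pass. Psf3, of the GINS complex, had -0.32 ± 0.04 and Psf2 of the same complex 0.03 ± 0.17. Mcm10, which helps to activate the helicase, had -0.01 ± 0.10. The loading factors themselves were not lower: Cdc6 had -0.01, 0.04 and 0.35, and dup, which encodes the Cdt1 protein, had 0.13, 0.18 and 0.36. Both were highest in experiment 5, and neither was called (limma, adjusted p = 0.440 and 0.161). The kinase genes were split, with Cdk2 at -0.35 ± 0.14 and chif, the activator of the Cdc7 kinase, at 0.20 ± 0.04 (limma, adjusted p = 0.0853 and 0.144). Cdc7 itself had -0.98, -0.73 and 0.18, with experiment 5 on the other side of 0 from the rest.

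RfC3, a subunit of the clamp loader that opens PCNA and sets it on DNA, had -0.54, -0.66 and -0.92, with a mean of -0.71 ± 0.19. It was low on all 3 arrays and 1.63-fold lower in wounded embryos (limma, adjusted p = 0.0385). Neither the call of RfC3 nor that of Cdc45 held with a common spread set for the arrays (limma, adjusted p = 0.0620 for both), or without any 1 of the arrays. The 7 tested genes of the clamp and clamp loader list had a median of -0.37, the lowest of the 10 roles. RfC4 had -0.51 ± 0.06, and cutlet, which encodes the large subunit of an alternative loader, -0.47 ± 0.12, while elg1, the large subunit of another alternative loader, had 0.17 ± 0.11. RfC38, a further loader subunit, had 0.02, -0.03 and -0.19, or -0.07 ± 0.11 (limma, adjusted p = 0.584). The clamp PCNA itself was thus closer to 0 than several of its loader subunits but not than RfC38, and these differences were not tested.

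All 8 tested polymerase and primase genes had means below 0, against 49.7% of all features. PolA2, of the polymerase that begins each new strand, had -0.49 ± 0.07 and Prim2, of the primase joined to it, -0.54 ± 0.13. Both passed the adjusted p in limma (0.0386 and 0.0407) but not the minimum fold. The partner subunits were closer to 0, with PolA1 at -0.13 ± 0.16 and Prim1 at -0.04 ± 0.13 (limma, adjusted p = 0.373 and 0.758). Prim1 had 0.09, -0.05 and -0.17 in experiments 3, 4 and 5, and so changed sign between arrays. The 3 subunits of the single-strand binding protein RPA were below 0 on all 3 arrays, against 25.0% of all features. Among them RPA1 had -0.41 ± 0.12 and RPA3 -0.36 ± 0.13. Of the genes that process the lagging strand, Dna2 had -0.33 ± 0.08 and Fen1 -0.30 ± 0.05. The chromatin assembly genes went both ways, with asf1, a histone chaperone gene, at -0.35 ± 0.15, and the 3 subunits of the chromatin assembly factor at -0.26 ± 0.18, 0.19 ± 0.12 and 0.15 ± 0.11. For nucleotide supply, the thymidylate synthase gene Ts had -0.27 ± 0.07 and RnrL, of ribonucleotide reductase, -0.13 ± 0.08. Genes of the S phase checkpoint and of replication timing had a median of -0.03 over 9 members, among them gnu, which drives the early embryonic divisions, at -0.36 ± 0.13 and the checkpoint kinase gene lok at -0.25 ± 0.11. No gene named in this paragraph was called.

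**Figure D4:**
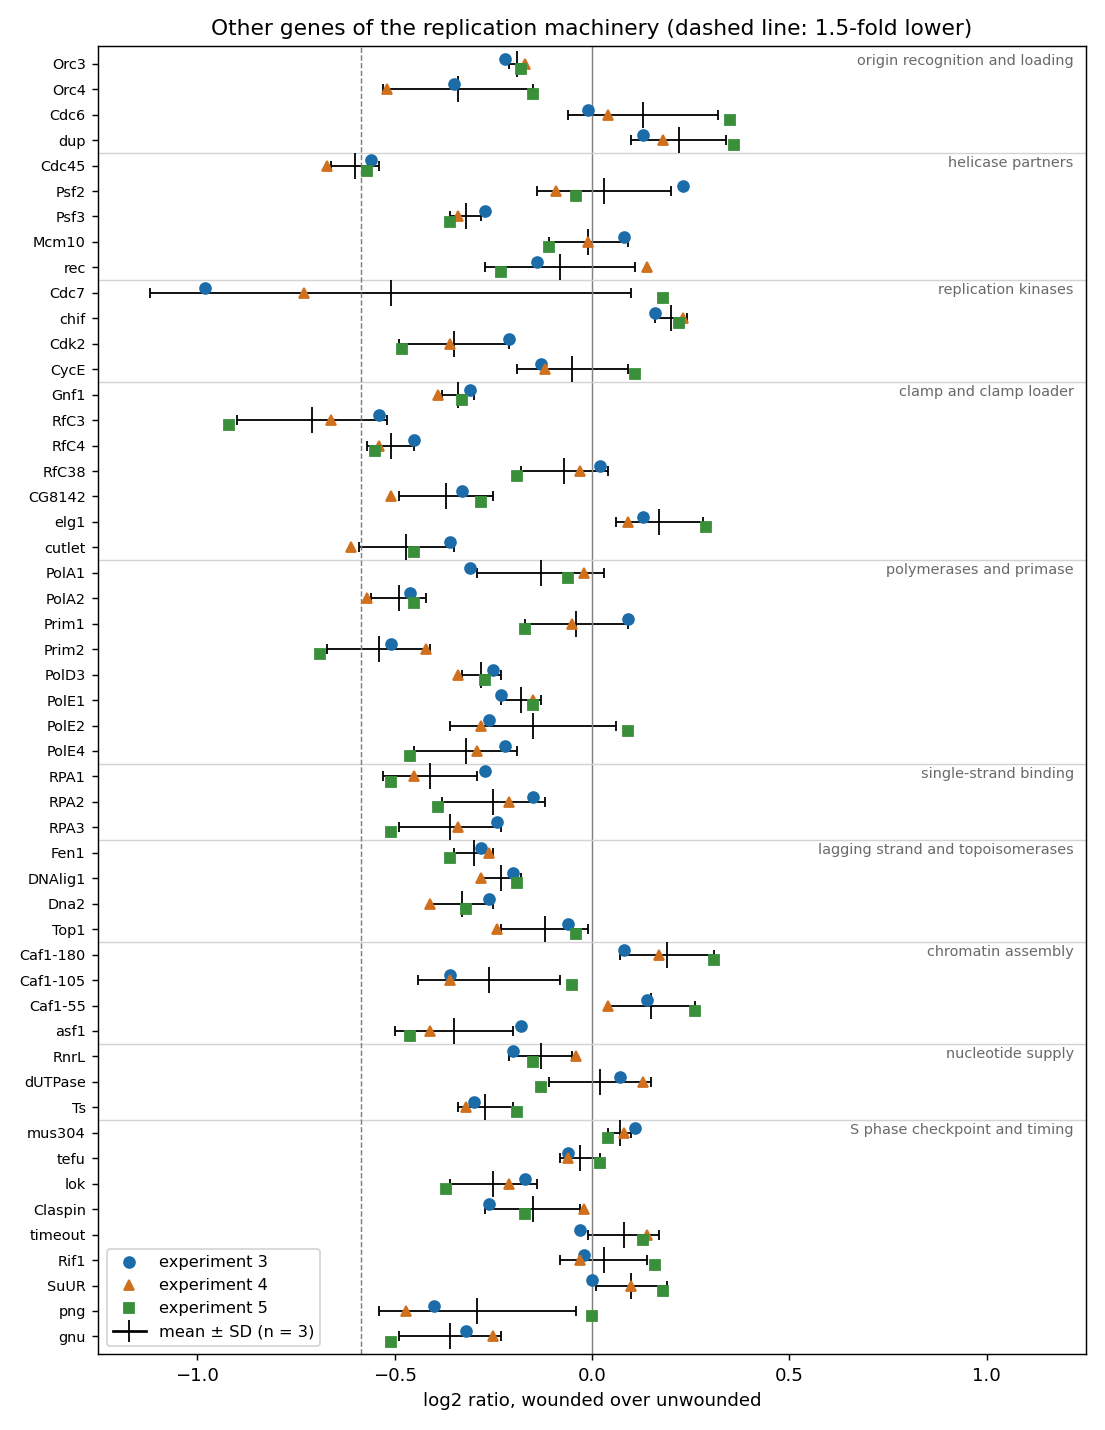
Log2 ratio of wounded over unwounded embryos (horizontal axis) for the 51 tested genes of the replication machinery outside the licensing genes (rows, grouped by role), with a symbol for each of experiments 3, 4 and 5, the mean ± SD (n = 3) in black and a dashed line at 1.5-fold lower. Only Cdc45 and RfC3 have means beyond that line, and the loading factors Cdc6 and dup and the kinase activator chif have means above 0.

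Of the gene lists for embryonic stage, the early zygotic one was mostly higher in the same samples. Of its 15 tested genes, 11 were called higher, against 0.648% of all features, with means from -0.12 to 1.10 and a median of 1.02. Of 13 tested maternal and germ plasm RNAs, 3 were called lower, against 1.68% of all features, with means from -1.35 to 0.65 and a median of -0.05. Both lists were chosen with earlier results of these data known. They include nullo, dpn, exu and dhd, which the publication lists as changed after wounding, so their counts are a description only. The 10 tested markers of later tissues and the 3 of follicle cells and yolk had medians of -0.09 and -0.15, with 0 called in limma and 4 and 0 lower at an unadjusted p under 0.05, against 14.9% of all features. Whether a difference in stage between wounded and unwounded embryos has a part in the lower ratios of the replication genes was not tested. The ratios give no level, so the embryonic identity of the RNA could not be checked by the presence of markers.

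By position, dpa and Orc1 are close neighbours on one chromosome arm, with 5 annotated genes between them. They nevertheless had -0.25 ± 0.11 and 0.08 ± 0.19, and 3 measured genes between them had means from -0.28 to 0.20. The mean of the 9 licensing genes was -0.22, -0.22 and -0.25 in experiments 3, 4 and 5. The genes outside the lists whose 3 values lay nearest to it, by Euclidean distance over 8076 named genes, were Cep97 (-0.22, -0.22 and -0.28), Coq3 (-0.25, -0.22 and -0.28) and CG16711 (-0.25, -0.19 and -0.24), at distances of 0.0307, 0.0377 and 0.0381. With 3 arrays such likeness is a description of values close to each other.

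The dyes were not exchanged on any array, so a difference between dyes cannot be told apart from one between wounded and unwounded embryos. Pearson's r between arrays, over features, which are not independent replicates, was 0.315 to 0.498.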

How the data were processed

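Ratios were measured on spotted arrays of fly cDNA clones. Per the study's methods, the authors left out flagged spots and those too dim or too close to background, took log2 ratios of both channels and loess normalized each array in limma. Loess sets the bulk of ratios near 0, so that a change in the same direction of most transcripts is hidden. The deposited table holds these log2 ratios for 12144 probes on 3 arrays. Brightness is not in it, and precision is limited by having 3 arrays.

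Probes were named through the array's annotation, updated to NCBI RefSeq Release 6 symbols. After 160 control spots were left out, complete probes of a gene were averaged, and 10183 features with a value on all 3 arrays were tested against 0, by an intercept-only model with moderated variances in limma 3.58.1 under R 4.3.3, two-sided, and Benjamini-Hochberg adjustment over all features. Calls needed an adjusted p under 0.05 and 1.5-fold. The study's methods call the replicates independent but do not say that they came from separate fly cultures, so p-values measure the spread between these arrays. The script was tested on simulated data. Alternatives were another scaling, centring, probe averaging, array weights, thresholds, and leaving out each array. Members and lists were chosen with earlier results of these data known. Other replication genes were named if called, or else as the 2 with the smallest p of a role. Those named for contrast beside them were chosen after their values were seen. They were Psf2, Psf3, Mcm10, Cdc6, Cdc7, dup, RfC4, RfC38, cutlet, elg1, PolA1, Prim1 and the chromatin assembly subunits other than the lowest.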

Additional observations from a re-analysis of the deposited data

How the results depend on the processing

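The 9 licensing genes were not called in any setting with a minimum fold, and their median stayed at -0.26 to -0.25 throughout. Without a minimum fold, 1 of them (Orc2), 6 of the other replication genes and 410 features were called. Orc2 had an adjusted p of 0.0317 to 0.0432 with array weights, centring or features on at least 2 arrays, and of 0.0638 with arrays scaled to the same spread. With such scaling, 0 features and 0 other replication genes were called in limma, where 2546 and 29 had an unadjusted p under 0.05. Leaving out 1 array gave 0 to 0 called features, against 237, and 0 to 0 called replication genes, against 2; 2 arrays leave the test few degrees of freedom. Cdc45 and RfC3 then had adjusted p of 0.0816 to 0.180. Of 73 values of single genes under the alternatives, 70 kept their direction. The exceptions were Orc1, at -0.03 to 0.15 when 1 array was left out (-0.03 without experiment 5) and -0.03 for its clone LD11626 alone, and Mcm6, with means of -0.04 to 0.01 in the same settings (0.01 without experiment 3); the cause was not tested. Leaving out clone Duke_8 was added after seeing the data and changed 0 calls. No paired analysis was possible because there is 1 group of ratios, other than the pairing of both conditions within an array that the test already uses.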

Other observations

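The E2F factors and their partner and repressor control the transcription of many replication genes in flies. They were looked at after the other values were known. E2f2, which encodes a repressive member, had -0.38, -0.53 and -0.46 in experiments 3, 4 and 5, or -0.46 ± 0.07, below the minimum fold (limma, adjusted p = 0.0407). Rbf, the retinoblastoma family gene, had -0.26 ± 0.08 (limma, adjusted p = 0.113). E2f1, the activating member, had -0.08 ± 0.11 and Dp, the shared partner, 0.06 ± 0.11, both near 0. None of the 4 was called.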
